A study of Mus musculus with 3 samples.

Results

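The transcription factor gene Crem, its CREB/ATF relatives Creb1, Atf1, Atf2 and Crebzf, and the CREB coactivator genes Crtc2 and Crtc3 were followed through the promoter peaks of H3K4me3, trimethylated lysine 4 of histone H3, a mark of active promoters. The members were all peaks that the deposited lists assigned to one of these 7 gene names and that lay within 2000 bp of a transcription start site. These were 17 promoter peaks of 21833 in all, and each of the 7 genes had at least 1, among 9081 genes with a promoter peak in any list. The lengths of the Crem and Crebzf peaks in TGFB1 and Ctrl were among the measured values that the genes were chosen by, so they are given as a description and carry no support.

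MLg cells, an established line of mouse lung fibroblasts, were used for chromatin immunoprecipitation followed by sequencing (ChIP-seq), and the antibody was ab8580. TGFB1+miR-9-LOF cells received an antagomiR named for miR-9-5p at 60 nM for loss-of-function of this microRNA, and human recombinant TGFB1, a cytokine that activates fibroblasts, for the last 4 h before harvest at 24 h, at 5 ng/ml and beginning 20 h after transfection. TGFB1 cells received the cytokine in the same way, and Ctrl cells are labelled WT. The study describes cells without the miR-9 probe as transfected with a Ctrl antagomiR, which the labels do not state library by library. Each group was 1 library of a single cell line, so no difference here has a replicate check and no test was possible.

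CREB family proteins bind the cAMP response element (CRE), a short DNA palindrome, and activate genes when protein kinase A phosphorylates them after a rise in cAMP. The CRTC proteins are coactivators that enter the nucleus when salt-inducible kinases no longer hold them in the cytoplasm. Crem encodes activators and repressors from one gene, and its internal promoter, itself known to hold CREs, makes the short repressor ICER, which ends the cAMP response. In fibroblasts cAMP signalling is known to oppose activation by TGFB1.

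The promoter sequences of the family are shown for Creb1 and Atf1, the close relatives whose peaks were absent from TGFB1+miR-9-LOF, and for Crebzf, whose peak was absent from TGFB1. RefSeq promoters (GRCm38.p6, the assembly of mm10) matched 5 of the 7 members, namely Creb1, Atf1, Atf2, Crebzf and Crtc3. Each run is the 250 bases before the annotated start, 5′ to 3′ on the gene's strand. The capitals mark the CRE core TGACG, or CGTCA where the core lies on the other strand.
Creb1, chr1:64532554-64532803, strand +: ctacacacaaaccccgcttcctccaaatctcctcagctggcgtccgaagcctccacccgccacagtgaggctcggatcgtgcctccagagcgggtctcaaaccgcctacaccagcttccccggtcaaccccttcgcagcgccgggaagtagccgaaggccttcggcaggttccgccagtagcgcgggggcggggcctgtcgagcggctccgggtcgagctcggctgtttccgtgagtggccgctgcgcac
Atf1, chr15:100227609-100227858, strand +: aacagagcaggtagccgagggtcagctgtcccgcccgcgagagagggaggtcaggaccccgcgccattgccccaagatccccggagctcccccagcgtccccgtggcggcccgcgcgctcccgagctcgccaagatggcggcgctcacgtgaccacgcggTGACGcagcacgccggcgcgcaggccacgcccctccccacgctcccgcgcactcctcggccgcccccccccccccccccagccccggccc
Crebzf, chr7:90442531-90442780, strand +: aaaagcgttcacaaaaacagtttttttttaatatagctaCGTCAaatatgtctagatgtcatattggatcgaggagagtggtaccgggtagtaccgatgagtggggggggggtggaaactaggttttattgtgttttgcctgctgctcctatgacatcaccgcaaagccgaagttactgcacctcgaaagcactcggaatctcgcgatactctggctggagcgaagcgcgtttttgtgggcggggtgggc

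Atf1 held 1 core, beginning 90 bases before its start, and Crebzf held 1, beginning 211 bases before its start. Creb1, Atf2 and Crtc3 held none in the same stretch. None of these 5 promoters held the full palindrome TGACGTCA. Of 32851 RefSeq promoters, each read from 250 bases before to 50 bases after the start and on both strands, 20.8% held the core TGACG, alone or within the palindrome, and 1.79% held the palindrome. Crebzf had the lowest share of G and C of the 5 in this stretch, 48.8%, against 67.6% in Creb1, 77.6% in Atf1, 67.2% in Atf2 and 73.6% in Crtc3.

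The microRNA that the antagomiR is named for is shown with its seed, bases 2 to 8, in capitals. RefSeq gives the mature mouse sequence at Mir9-1 on chromosome 3, Mir9-3 on chromosome 7 and Mir9-2 on chromosome 13, identical at all 3.
mmu-miR-9-5p: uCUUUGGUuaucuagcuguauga

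Each library had its own scale, which bears on all values below. TGFB1+miR-9-LOF had 4818 promoter peaks with a median length of 1347 bp and a median score of 46, TGFB1 had 8669 with 1756 bp and 91, and Ctrl had 8346 with 1699 bp and 80. The score is the authors' value for the strength of a peak, and since the lists differ in their scores, each score is read beside its percentile among the promoter peaks of the same list. No list held a peak under 1000 bp, so a promoter that became shorter than this had no peak at all. The read depth is unknown. For the cell type, 5 of 10 fibroblast genes had a promoter peak in TGFB1+miR-9-LOF and 8 in both TGFB1 and Ctrl, with summed lengths of 6947, 19289 and 15876 bp in the same order of libraries and with Col3a1 and Thy1 at 0 in all 3. None of 8 epithelial or 5 endothelial genes had a peak in any library, and of 7 immune genes Cd14 alone had one, of 1200 bp in TGFB1 and 1472 bp in Ctrl.

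Both Crem starts followed here, the main and the internal one, were marked in TGFB1, the main one alone in Ctrl and neither in TGFB1+miR-9-LOF. At the main start of Crem the peak was absent from TGFB1+miR-9-LOF, 2179 bp long in TGFB1 (chr18:3336243-3338421, mm10) and 1421 bp long in Ctrl (chr18:3336278-3337698). In the Ctrl list this peak carries the name Gm6225, a non-coding gene whose start lies inside the same peak, so that by deposited name Crem had no peak in Ctrl. By name the summed promoter length of Crem was therefore 0 bp in TGFB1+miR-9-LOF, 3209 bp in TGFB1 and 0 bp in Ctrl. When peaks were instead merged into regions over the 3 libraries, the Ctrl value was 1421 bp. Read by region, Crem was a promoter already marked in Ctrl and longer in TGFB1, not one that TGFB1 alone marked.

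The added length at the main start lay almost wholly on one side. The TGFB1 peak reached 832 bp before the annotated start, against 109 bp in Ctrl, which is 723 bp of the 758 bp difference, while the other edges lay 35 bp apart. The centre of the TGFB1 peak lay in an intron of Gm6225, so the added length cannot be assigned to Crem alone. The log2 length ratio of this single peak was 0.62 for TGFB1 over Ctrl. Its score was 45 in TGFB1, at the percentile 6.79 of that list, and 46 in Ctrl, at the percentile 10.8. Its rank by score was thus lower where the peak was longer, and its length stood at the percentile 86.3 in TGFB1 and 19.8 in Ctrl. In TGFB1 the Crem promoter was thus a long peak of low score.

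A second Crem peak was called in TGFB1 and in neither TGFB1+miR-9-LOF nor Ctrl. It was 1030 bp long with a score of 38 (percentile 2.96) at chr18:3280483-3281512 and covered the internal start from which the ICER transcripts begin, in a 5′ UTR, within exon 1 of 4 of a short Crem transcript. With its length just above the 1000 bp minimum (percentile 1.26), it was one of the shortest promoter peaks of its list. Of the 812 TGFB1 promoter peaks that were likewise under 2 kb with a score under 50, 63.4% were also called in Ctrl. In TGFB1+miR-9-LOF 5.79% of them were kept. The absence of so weak a peak was thus common in TGFB1+miR-9-LOF, whereas most such peaks were called in Ctrl. More than 1 promoter peak in TGFB1 was found for 92 of 8572 genes (1.07%), and in 17 of these (18.5%) at least 1 of the peaks was absent from Ctrl. With both TGFB1 peaks summed over the 1 Ctrl peak of the region, the log2 ratio of Crem was 1.18, of which the main peak alone gave 0.62. Crem was chosen by these lengths, so both ratios are descriptions.

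The CRE palindrome was found at this internal site and in no other member peak. In the 1000 bp around its centre it held TGACGTCA at 2 places, 1 beginning 43 bp before the internal start and 1 beginning 24 bp after it. The palindrome was in 3.47% of the equal windows around all 8669 TGFB1 promoter peaks, and 2 or more copies were in 11 of them (0.127%). The Crem main start had no palindrome and 3 cores, as had Creb1. A core outside the palindrome was in 55.3% of all windows, with a median of 1. G and C made up 42.6% of the bases at the internal start (percentile 1.05 of all windows) and 65.4% at the main start, against a median of 58.7% over all windows (quartiles 54.2 and 63.6). The ratio of observed to expected CpG was 0.508 at the internal start and 1.02 at the main start, with a median of 0.725.

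**Figure D1:**
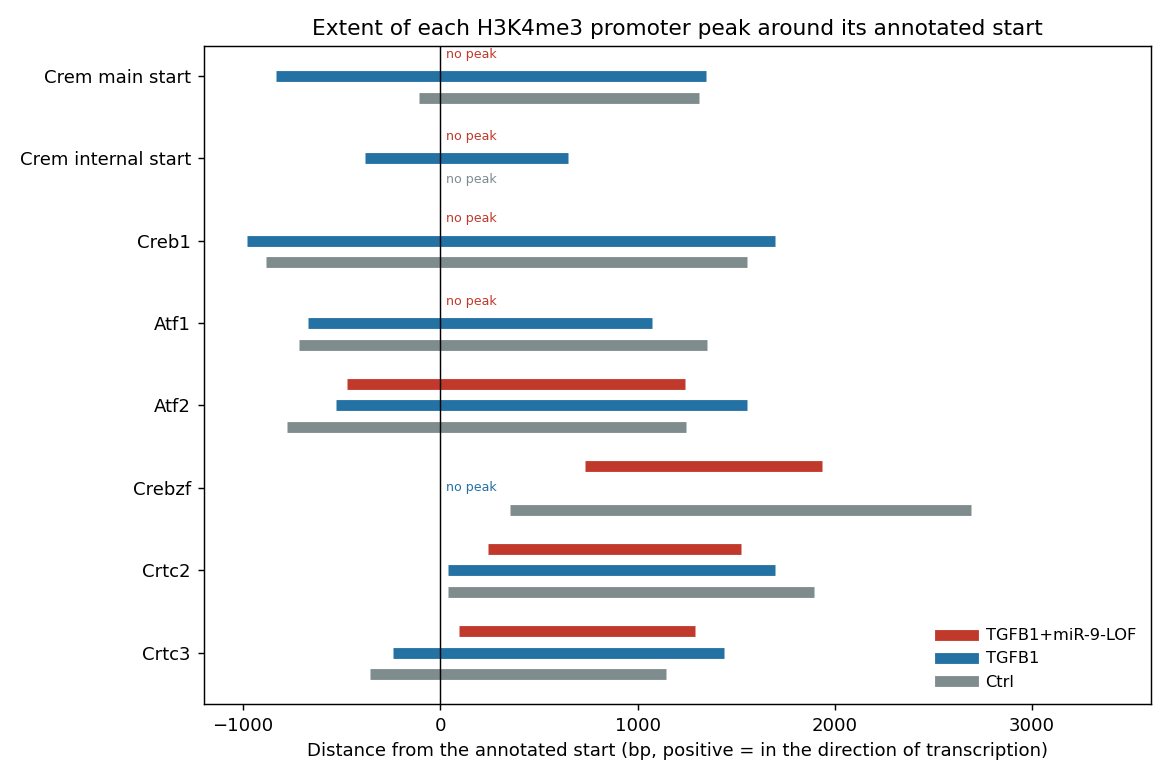
Extent of each promoter peak (horizontal bars) in bp from the annotated start of its transcript, for the 8 member sites in TGFB1+miR-9-LOF, TGFB1 and Ctrl, with 1 library a group. At the Crem main start the TGFB1 bar reaches 832 bp before the start and the Ctrl bar 109 bp, and at the Crem internal start there is a bar in TGFB1 alone.

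Creb1, the activator for which the family is named, had the longest single peak of the members. Its peak was absent from TGFB1+miR-9-LOF, 2679 bp in TGFB1 (chr1:64531824-64534502) and 2443 bp in Ctrl (chr1:64531918-64534360). TGFB1 was longer by 236 bp, 94 bp of it upstream and 142 bp downstream, a log2 ratio of 0.13. In length the TGFB1 peak lay at the percentile 97.8 of its list, close under the 2.7 kb from which the study calls a domain broad, while its score of 78 lay at the percentile 37.1.

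Atf1, the nearest relative of Creb1 and Crem, differed in the other direction. There was no peak in TGFB1+miR-9-LOF, and the peak was 1743 bp in TGFB1 (chr15:100227188-100228930) and 2067 bp in Ctrl (chr15:100227143-100229209). The log2 ratio for TGFB1 over Ctrl was -0.25, at the percentile 5.57 of 7849 genes, and 279 bp of the 324 bp difference lay on the downstream edge. Its score percentile ran the other way, at 46.3 in TGFB1 and 25.6 in Ctrl. The shorter Atf1 peak was thus the one that ranked higher in its own list.

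Atf2, a CRE-binding factor that stress-activated kinases phosphorylate, kept its peak in all 3 libraries. The peak was 1716 bp in TGFB1+miR-9-LOF (chr2:73891399-73893114), 2088 bp in TGFB1 (chr2:73891083-73893170) and 2023 bp in Ctrl (chr2:73891396-73893418). Of the members with a peak in TGFB1+miR-9-LOF, it had the highest score percentile there, 79.3, as it had in TGFB1 (96.7) and Ctrl (92.4). Although TGFB1 and Ctrl differed by only 65 bp in length, the peak was placed differently, with the TGFB1 peak 248 bp shorter upstream and 313 bp longer downstream.

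Crebzf, a leucine zipper protein that lacks strong DNA binding of its own and acts through partner proteins, was the member with a peak in TGFB1+miR-9-LOF and Ctrl but not in TGFB1. The peak was 1207 bp in TGFB1+miR-9-LOF (chr7:90443512-90444718) and 2341 bp in Ctrl (chr7:90443133-90445473). Neither covered the annotated start, since they began 731 bp downstream of it in TGFB1+miR-9-LOF and 352 bp downstream in Ctrl. Their distances to the start assigned by HOMER, 1334 bp and 1522 bp, were the member values nearest to the 2000 bp limit, and no member peak lay beyond that limit. Merging peaks into regions did not give Crebzf a peak in TGFB1.

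The following values describe the pattern by which Crebzf was chosen and are no support for it. Of 9316 merged regions, 6 were covered in TGFB1+miR-9-LOF and Ctrl without TGFB1, Crebzf among them, and 4923 were covered in all 3. Of 8346 Ctrl promoter peaks, 2.12% had no overlapping peak in TGFB1, and of the 2408 with a score of 50 to 74, the range of the Crebzf peak (score 71, percentile 38.7), 2.28% had none. Of the 287 in that score range that were also of medium length (2 kb to under 2.7 kb), 1 had none, which is the Crebzf peak itself. The neighbouring promoters were called in TGFB1: Tmem126a had 1531 bp in TGFB1+miR-9-LOF, 1763 bp in TGFB1 and 1653 bp in Ctrl. Tmem126b had 1138, 1470 and 1693 bp in the same order.

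Crtc2 and Crtc3, the coactivators, had peaks in all 3 libraries. The Crtc2 peak was 1283 bp in TGFB1+miR-9-LOF (chr3:90254102-90255384), 1661 bp in TGFB1 (chr3:90253896-90255556) and 1855 bp in Ctrl (chr3:90253897-90255751). It began downstream of the start in every library, by 244 bp in TGFB1+miR-9-LOF, 38 bp in TGFB1 and 39 bp in Ctrl, so that TGFB1 and Ctrl shared the upstream edge to within 1 bp and differed by 195 bp downstream. The Crtc3 peak was 1196 bp in TGFB1+miR-9-LOF (chr7:80687585-80688780), 1682 bp in TGFB1 (chr7:80687437-80689118) and 1500 bp in Ctrl (chr7:80687734-80689233). For TGFB1 over Ctrl the log2 ratio was -0.16 for Crtc2 and 0.17 for Crtc3, opposite in sign. Their score percentiles also moved apart, Crtc2 with 94.9 in TGFB1 and 80.0 in Ctrl, and Crtc3 with 22.3 in TGFB1 and 49.5 in Ctrl.

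**Figure D2:**
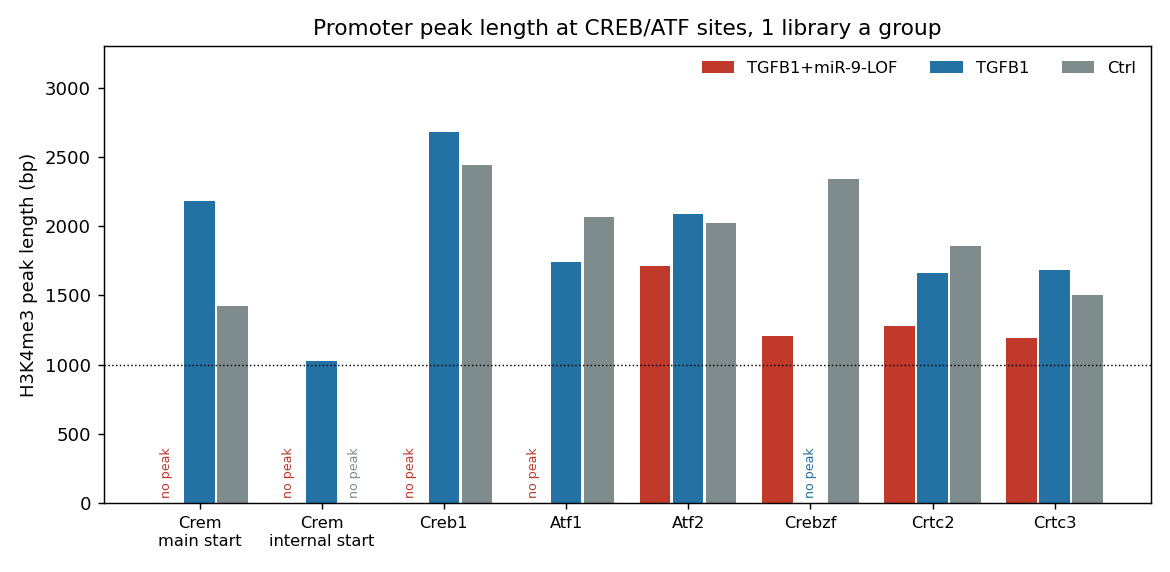
Length in bp (vertical axis) of the promoter peak at each member site in TGFB1+miR-9-LOF, TGFB1 and Ctrl; bars are single libraries, and the dotted line is the 1000 bp minimum of the lists. In TGFB1+miR-9-LOF the bars of Atf2, Crebzf, Crtc2 and Crtc3 range from 1196 to 1716 bp, and the sites of Crem, Creb1 and Atf1 have none.

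The first comparison asked how the family changed with 4 h of TGFB1. By deposited name, 3 of the 5 genes with a peak in both libraries were longer in TGFB1 than in Ctrl, against 64.2% of all 7849 such genes, and 2 of 5 were shorter, against 35.6%. None of the 5 was longer by 25% or more, against 10.2% of genes, and none was shorter by 20% or more, against 3.04%. Their median log2 ratio was 0.05, with 0.06 over all genes. The 1 gain of 7 by name, Crem, stands beside 8.06% of genes gained, and the 1 loss, Crebzf, beside 4.49% lost. These shares include changes of name: 244 of 723 genes gained by name (33.7%) had a Ctrl peak under another name, as Crem had, and 240 of 403 genes lost by name (59.6%) had a TGFB1 peak under another name. With merged regions 4 of 6 members were longer (64.4% of genes), 1 of 6 by 25% or more (10.5%; Crem), none was gained (5.28%) and 1 was lost (1.8%; Crebzf). Single members spread around that median: Atf2 (percentile 46.5), Creb1 (66.5) and Crtc3 (72.9) lay between the quartiles of all genes, -0.05 and 0.18, while Atf1 (5.57) and Crtc2 (10.8) lay below them.

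**Figure D3:**
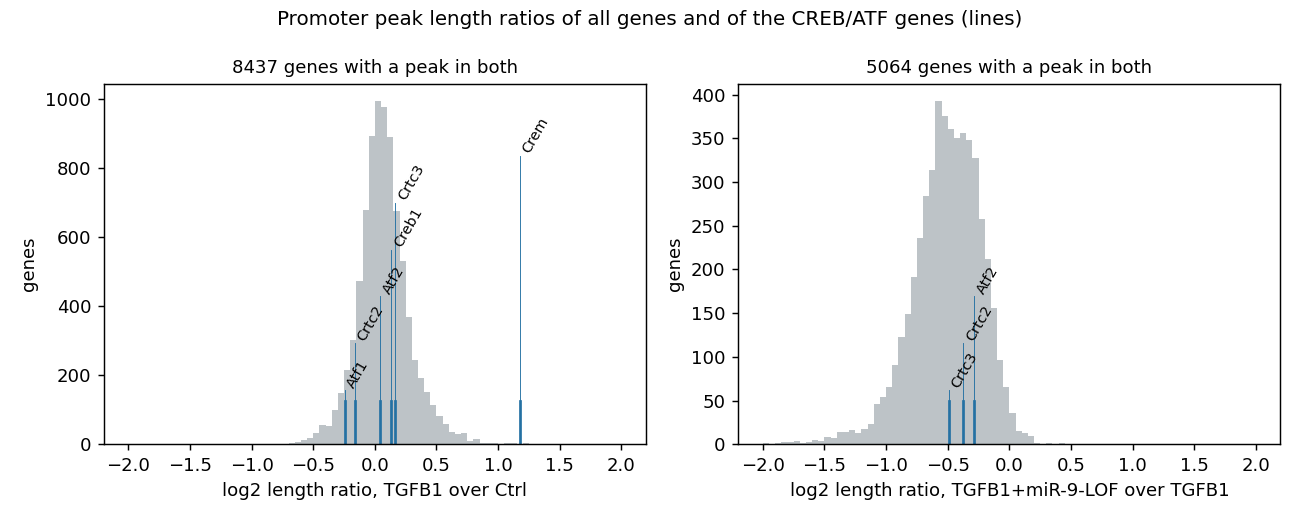
Number of genes (vertical axes) by log2 ratio of promoter peak length (horizontal axes), with peaks assigned by merged region, for TGFB1 over Ctrl (left, 8437 genes) and TGFB1+miR-9-LOF over TGFB1 (right, 5064 genes); vertical lines mark the members, staggered in height for the names. In the left plot Crem lies at 1.18 and the other members between -0.25 and 0.17, and in the right plot the members lie between -0.49 and -0.28.

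The second comparison set TGFB1+miR-9-LOF against TGFB1, and it shares the TGFB1 library with the first. All 3 members with a peak in both were shorter in TGFB1+miR-9-LOF, against 98.4% of all 4603 genes, and 2 of 3 by 20% or more, against 72.8%. The log2 ratios were -0.28 for Atf2, -0.37 for Crtc2 and -0.49 for Crtc3, with a median of -0.37, beside -0.48 over all genes (quartiles -0.66 and -0.31). Crem, Creb1 and Atf1 lost their peaks, 3 of 7 beside 45.3% of genes. The 1 gain, Crebzf, stands beside 2.19% of genes by name, nearly all of which (184 of 192) had a TGFB1 peak under another name, and beside 0.0896% by merged region. Shorter peaks were thus common to nearly all promoters of this library and lost peaks to many, its median score was also lower (46 in TGFB1+miR-9-LOF and 91 in TGFB1), and the part of that library-wide difference in the members' values was not tested.

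TGFB1+miR-9-LOF was also set against Ctrl, so this comparison shares a library with each of the others. All 4 members with a peak in both were shorter in TGFB1+miR-9-LOF, against 96.3% of 4589 genes, and 3 of 4 by 20% or more, against 65% of genes. Crebzf had the lowest ratio of the 4, with a log2 ratio of -0.96 at the percentile 3.39. For Crtc2 it was -0.53, for Crtc3 -0.33 and for Atf2 -0.24. By name 2 of 6 members, Creb1 and Atf1, had a peak in Ctrl and none in TGFB1+miR-9-LOF, against 43.3% of genes. By merged region, where the Ctrl peak over the Crem start counts as Crem, it was 3 of 7, with Crem added, against 41.2%.

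Which members kept a peak in TGFB1+miR-9-LOF followed the order of their scores in TGFB1 with 1 exception. Over all 8669 TGFB1 promoter peaks, 55.6% overlapped a peak in TGFB1+miR-9-LOF (95% Wilson interval 54.5 to 56.6). Such an interval counts the peaks of 1 library a group and measures no spread between libraries. The share was 7.22% for scores under 50, 25% for 50 to 74, 54.5% for 75 to 99, 82.8% for 100 to under 150 and 98.0% for 150 or more. Atf2, with a score of 168, and Crtc2, with 159, lay in the highest range and kept their peaks. Atf1 (87) and Creb1 (78) lay in the middle range and lost theirs. Both Crem peaks (45 and 38) lay in the lowest range and were lost. Crtc3, with a score of 63 in TGFB1, kept its peak although only 20.6% of the 1739 narrow peaks (under 2 kb) in its score range did. For Creb1 the reverse held, since 76.4% of the 449 medium peaks with scores of 75 to 99 were kept.

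**Figure D4:**
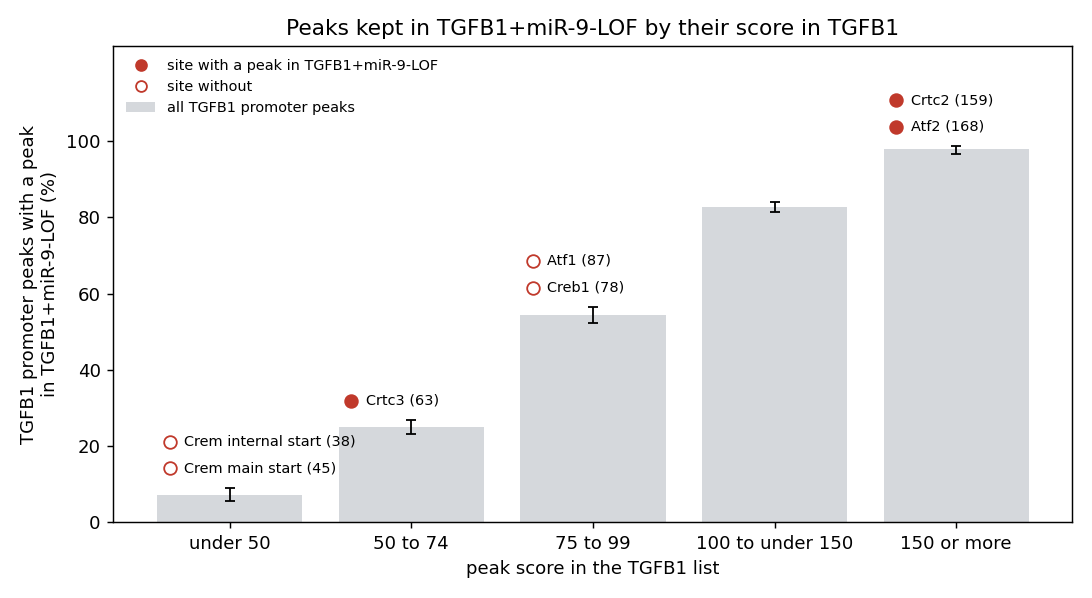
Share in percent of TGFB1 promoter peaks that overlap a TGFB1+miR-9-LOF peak (grey bars, with 95% Wilson intervals as error bars), by score in the TGFB1 list; circles name the member sites with their TGFB1 scores above the bar of their range, filled where a TGFB1+miR-9-LOF peak exists, and their height carries no value. The share is 7.22% for scores under 50 and 98.0% for 150 or more, and Crtc3 is the 1 filled circle below a score of 100. The intervals measure no spread between libraries.

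The chromosomes of the members differed in the share of peaks kept. It was 39.3% of 229 TGFB1 promoter peaks on chromosome 18, where Crem lies (95% Wilson interval 33.2 to 45.8). On chromosome 15, that of Atf1, it was 65.2% of 365 (60.2 to 69.9), and on chromosome 1, that of Creb1, 60.7% of 501 (56.3 to 64.9). The members that kept a TGFB1 peak lay on chromosome 2 (Atf2), with 59.2% kept, chromosome 3 (Crtc2), with 53.6%, and chromosome 7 (Crtc3), with 54.6%. Of the 6 members with a TGFB1 peak, Crem was lost on a chromosome below the 55.6% over all and Atf2 was kept on one above it, whereas Atf1 and Creb1 were lost on chromosomes above it and Crtc2 and Crtc3 were kept on chromosomes below it. The intervals by chromosome likewise count peaks of 1 library a group, so they do not show that the chromosomes would differ again in other libraries. The part of the chromosome in these losses was not tested.

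The study asked about G-quadruplexes, four-stranded structures of guanine-rich DNA, so the member sites were searched for their sequence motif, 4 runs of 3 or more G with 1 to 7 bases between runs, on either strand. In the 1000 bp around the peak centre 6 of the 8 member sites held at least 1, beside 53.7% of all TGFB1 promoter peaks. The window was that of the TGFB1 peak at 7 sites and of the Ctrl peak at Crebzf, which has no TGFB1 peak, so the count and the share differ in this 1 window. The sites without one were the Crem internal start and Crebzf. Atf1 had 3 motifs and Creb1 had 1, and both had a high G and C content (74.3% and 74.8%) and no peak in TGFB1+miR-9-LOF. Atf2, Crtc2 and Crtc3, which kept theirs, had 2 each, as had the Crem main start, which did not. G and C made up 60.8%, 59.7% and 68.6% of the bases at Atf2, Crtc2 and Crtc3. At the Crem main and internal starts, both without a peak in TGFB1+miR-9-LOF, they made up 65.4% and 42.6%.

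Around the family, a list of 107 genes of the cAMP pathway was followed, of which 70 had a promoter peak in any library. For TGFB1 over Ctrl, 43 of 63 genes with a peak in both were longer and 20 shorter, beside 64.2% and 35.6% of all genes. By 25% or more 10 were longer (10.2% of all genes), and by 20% or more 4 were shorter (3.04%). The median log2 ratio was 0.06, as over all genes, and by name 6 genes were gained (8.06% of all genes) and 1 was lost (4.49%). The list was thus near the background. Of the kinases that act on CREB or on the CRTC proteins, a role singled out after its values were seen, 10 of 10 were longer, but only 2 by 25% or more, with a median log2 ratio of 0.11, and 1 more, Rps6ka5, lost its peak. The salt-inducible kinase Sik2 had 1781 bp in TGFB1 and 1274 bp in Ctrl. Among the phosphodiesterases, which break down cAMP, 5 of 16 listed genes had a peak in both libraries. Of these 5, 4 were longer, beside 64.2% of all genes. The exception was Pde3a, with 1788 bp in TGFB1 and 2334 bp in Ctrl, the one whose enzyme is inhibited by cGMP.

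The largest increases in bp with TGFB1 in the pathway were at 2 leucine zipper relatives and a neurotrophin gene. Nfil3, a repressor that is induced by cytokines, had 2345 bp in TGFB1 and 1174 bp in Ctrl. Atf5, a survival factor of the ATF family, had 2581 bp in TGFB1 and 1697 bp in Ctrl. Bdnf, a classical CREB target, had 4245 bp in TGFB1 and 3487 bp in Ctrl over 2 promoter peaks. The order by log2 ratio was different. Per2, a CREB target, had 0.68 and stood above Atf5 with 0.60. Bdnf, with 0.28, stood below several genes, among them the CREB target Fosb with 0.51. The log2 ratio of Nfil3, with 1 peak in each library, was 1.00, the highest of the list, beside 0.62 for the main peak of Crem.

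The largest decreases in bp besides Pde3a were at the early-response CREB targets Dusp1 and Rgs2. Dusp1, a phosphatase that turns off MAP kinases, had 1795 bp in TGFB1 and 2384 bp in Ctrl. Rgs2, an inhibitor of G protein signalling, had 1017 bp in TGFB1, just above the minimum, and 1586 bp in Ctrl. Over the whole list of 20 CREB targets 9 of 15 were longer and 6 shorter, with a median log2 ratio of 0.03, beside 64.2% longer and a median of 0.06 over all genes.

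Of the genes gained by name the longest were Irs2, Gnas and Prkar1b. Gnas, which encodes the G protein subunit that activates adenylyl cyclase, had 1573 bp in TGFB1 and no peak in Ctrl under either assignment. For Irs2, an adaptor of the insulin receptor, the 1733 bp in TGFB1 stood against 1665 bp in Ctrl under another name. The same held for Prkar1b, a regulatory subunit of protein kinase A, with 1527 bp in TGFB1 and 1601 bp in Ctrl by region. Rps6ka5, the 1 lost gene, encodes a kinase of CREB and histone H3 and had no peak in TGFB1 and 1603 bp in Ctrl.

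In TGFB1+miR-9-LOF against TGFB1, 39 of 39 pathway genes with a peak in both were shorter, beside 98.4% of all genes, and 33 of them by 20% or more, beside 72.8%. Their median log2 ratio was -0.51, beside -0.48, and 30 of 69 lost their peaks, beside 45.3%, so the list followed the shift of the whole library. The largest decrease was at Nr4a2, a nuclear receptor induced by cAMP, with 1080 bp in TGFB1+miR-9-LOF and 3647 bp in TGFB1, where 1 of 2 peaks was left. Bdnf likewise had 1846 bp in 1 peak in TGFB1+miR-9-LOF and 4245 bp in 2 peaks in TGFB1. The acetyltransferase Ep300, a coactivator of CREB, had 1300 bp in TGFB1+miR-9-LOF and 2443 bp in TGFB1. The longest TGFB1 peaks without a peak in TGFB1+miR-9-LOF were those of Atf5 (2581 bp), Nfil3 (2345 bp) and Ptgs2 (2233 bp), which encodes the inducible cyclooxygenase. Atf5 and Nfil3 were thus, like Creb1 and, by merged region, Crem, longer in TGFB1 than in Ctrl and without a peak in TGFB1+miR-9-LOF. Other genes of the list, among them Sik2, Per2 and Adcy6, had the same pattern. Its share over all genes was not counted. Taken singly, 64.2% of all genes were longer in TGFB1 than in Ctrl, and 45.3% lost their peaks in TGFB1+miR-9-LOF.

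**Figure D5:**
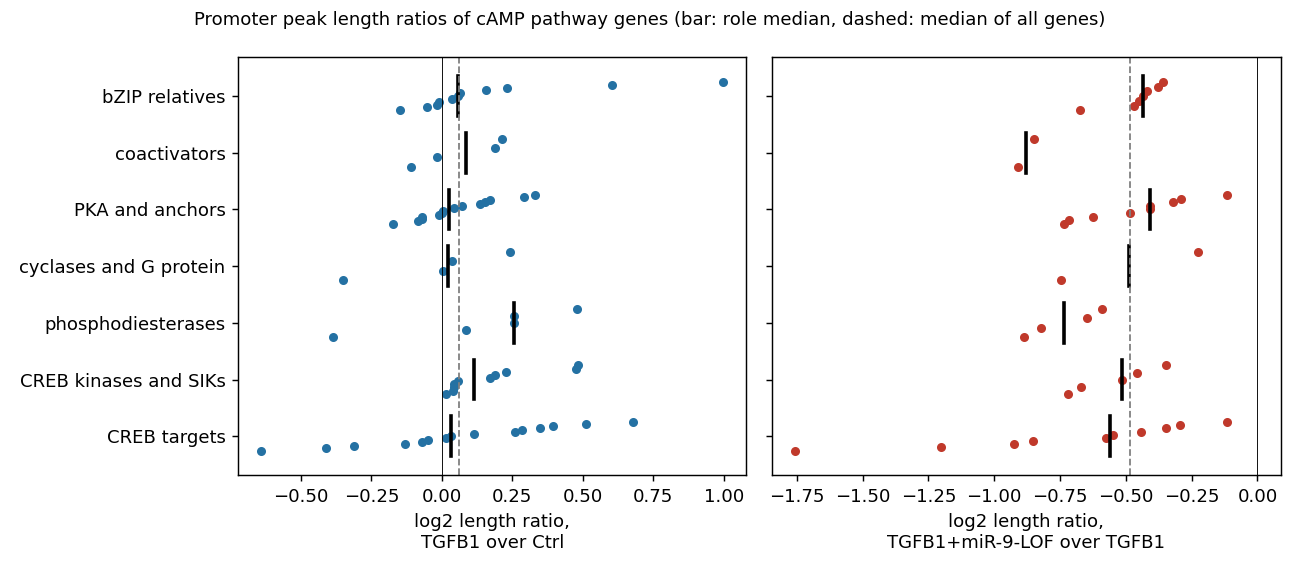
Log2 ratio of promoter peak length (horizontal axes) for the genes of 7 roles of the cAMP pathway (rows, 1 point a gene, by deposited name), for TGFB1 over Ctrl (left) and TGFB1+miR-9-LOF over TGFB1 (right); the black bar is the median of a role and the dashed line that of all genes. The kinases lie above 0 in 10 of 10 genes on the left, and all 39 points on the right lie below 0.

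Genes most like Crem and Crebzf were sought by the sum over the 3 libraries of absolute differences in promoter peak length. By name those nearest to Crem were Caskin2 (25 bp), Ric8a (123 bp) and Slc9a5 (137 bp), and those nearest to Crebzf were Snord45c (82 bp), Snora69 (220 bp) and Sirt3 (272 bp). As with Crem, the names were not the whole account: under other names Caskin2, Ric8a and Slc9a5 had 2734, 3064 and 1818 bp in Ctrl, and Snord45c, Snora69 and Sirt3 had 2646, 1935 and 1845 bp in TGFB1. By merged region the nearest to Crem were Gpbp1l1 (189 bp; 0 bp in TGFB1+miR-9-LOF, 3039 bp in TGFB1 and 1402 bp in Ctrl), Aldh7a1 (199 bp) and Ubtf (415 bp). For Crebzf they were Lemd3 (622 bp; 1737 bp in TGFB1+miR-9-LOF, 0 bp in TGFB1 and 2433 bp in Ctrl), Anp32b (822 bp) and Mccc1os (1019 bp), which are among the 6 regions without a TGFB1 peak counted above.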

How the data were processed

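H3K4me3 ChIP-seq peaks of 3 MLg libraries, 1 a group, were analysed. The submitters' notes name Trimmomatic, Bowtie2, Picard (1.119), deepTools (3.5.1), MACS3, bedtools, HOMER and the build mm10. Broad peak calling with MACS3 is stated for CUT&Tag and in the reporting summary, and an input control is not given in the sources used here. The deposited lists give each peak's position, distance to the nearest start, gene name and a score made by the authors, with no read counts, so depth and counting error are unknown.

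Groups were taken from the treatment label. Length was end minus start plus 1, and promoter peaks within 2000 bp were summed per gene name. Regions were peaks of the 3 lists that overlapped by at least 1 bp; a gene then took every peak of its region. Ratios are log2 of lengths. Python 3.11.15, pandas 2.3.3 and pyfaidx 0.9.0.4 were used, and the scripts were tested on simulated lists. The members, the gene lists and the alternatives were chosen with earlier results of these data known. Genes named from the pathway list were the 3 largest increases and decreases in bp and the 3 longest gained and lost per contrast; Sik2 and the kinase role were singled out after their values were seen. Alternatives were a score of at least 50, the longest peak, limits of 1000 and 5000 bp, joining of peaks within 1000 bp, merged regions, a fold of 1.5 and an overlap of 50% of the shorter peak.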

Additional observations from a re-analysis of the deposited data

How the results depend on the processing

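No paired analysis was possible because each group had 1 library and the labels carry no replicate numbers, and no library could be left out. With peaks of a score of at least 50 only, the Crem difference, TGFB1 minus Ctrl, was 0 bp instead of 3209 bp, the members with a peak in TGFB1+miR-9-LOF were 1 instead of 4 and those shorter in it than in TGFB1 were 1 instead of 3, as this threshold takes away the peaks of lower score, among them all Crem peaks. With merged regions the Crem difference was 1788 bp. The remaining alternatives for the member counts and the Crem and Crebzf lengths, 26 in all, stayed within 1.5 times of the values given. So did both pathway contrasts by region. Crebzf had 0 bp in TGFB1 in each setting, but only the limit of 5000 bp and merged regions could have added a peak. At the limit of 1000 bp both Crebzf peaks (1334 and 1522 bp from the assigned start) were left out. At a score of at least 50 its TGFB1+miR-9-LOF peak (score 36) was left out. Its pattern over the 3 libraries could thus not appear in either setting. The 46 recomputed log2 ratios of single members kept their sign, but this is no check of them. Each of these members had 1 promoter peak in each library compared. Nearly all alternatives could therefore only repeat a ratio or drop it. At 1.5-fold, 1.86% of genes were longer and 0.446% shorter in TGFB1 than in Ctrl, and 34.4% were shorter in TGFB1+miR-9-LOF than in TGFB1. All 3 counts of shared member sites were unchanged at an overlap of 50% of the shorter peak. The genes most like Crem and Crebzf had 0 in common between names and merged regions, an alternative added after seeing the data.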
